A study of Drosophila melanogaster with 4 samples.

Results

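Chromosome 4 and the centromere-proximal ends of the arms 2L, 3L, X and 3R held 260 of the 7683 binding sites called for the Hox protein Deformed (Dfd) in Drosophila melanogaster embryos. The members were chosen by position and not by score, with earlier results of these data known. Of them, 85 were all the peaks of chromosome 4. The other 175 had a midpoint in the centromere-proximal 1 Mb of an arm sequence, counted from its outermost peak. These were 48 on 2L, 52 on 3L, 36 on X and 39 on 3R. Heterochromatin scaffolds are separate sequences of the assembly and were not part of these ends. The other 1867 peaks of the same 4 arms served as the comparison. On the release 5 assembly, the proximal ends began at base 22007723 of 2L, base 23541009 of 3L and base 21405253 of X and ran to the last peak of the arm, and on 3R they ran from the first peak to base 1057935.

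Dfd is a homeodomain transcription factor that gives the maxillary and mandibular segments of the head their identity, and it binds DNA together with cofactors such as Extradenticle. Chromosome 4 of the fly is a very small autosome. It is rich in repeats and coated along much of its length by Heterochromatin protein 1 and by the chromosome-specific protein POF, yet its genes are transcribed at ordinary levels. Among them are ci, the effector of Hedgehog signalling, pan, the effector of Wnt signalling, and the eye regulators ey and toy. The proximal ends of the large arms lead into pericentric heterochromatin, where repeats replace genes over long distances. The 2 kinds of territory are thus often named together as heterochromatic, and the question was whether the binding sites called in them are alike.

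The 4 libraries were 2 of chromatin immunoprecipitated with a rabbit polyclonal antibody against green fluorescent protein (GFP) and 2 of input DNA, and all 4 came from the same kind of fly. Per the labels, the strain was Dfd-GFP-Pacman, the genotype PBac{y[+]-attP-3B}VK00037, and the transgene carried the genomic Dfd coding region with GFP in place of the stop codon. The stage was labelled 0 to 8 h, whereas the collection protocol describes 8 to 16 h and flies of the stock y; bw cn sp. No untagged strain was among the samples, and the labels do not say whether the flies also had untagged Dfd. The authors deposited 1 peak list with a start, an end and a score for each peak and no value per library, so replicates could not be compared and no test between conditions was possible. Intervals below are 95% intervals of counting error (exact Poisson for densities, exact Clopper-Pearson for shares) or of a median among peaks (from order statistics). Neighbouring peaks are not independent, so these intervals are too narrow for comparing territories, and no p-value is given.

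The score of a peak was read as −log10 p of enrichment over background. Of all scores, 4588 (59.7%) equalled, to 2 decimals, the upper tail of a Poisson distribution with a mean of 80.0563 fragments. At rates further from it, up to 20 away and in steps of 0.01, a median of 240 scores and at most 917 matched. The rates nearest to it were left out of that comparison. With the rate rounded to 2 decimals, 54.1% of scores still matched on chromosome 4. The shares were then 38.3% at the proximal ends and 42.1% on the rest of the arms. For a matched peak, the score gives the pileup of fragments at the summit and its fold over that background rate. These folds are inferred, and no fold was derived for the other peaks.

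Chromosome 4 carried many strong peaks along its whole length. At the 4 proximal ends pooled, the share of strong peaks was close to that on the rest of the arms. A peak was called strong when it was in the top 10% of the whole list by score, 52.26 or more. By this rule 32 of 85 peaks were strong on chromosome 4 (37.6%, interval 27.4 to 48.8%) and 24 of 175 at the proximal ends (13.7%, interval 9.0 to 19.7%). The background was 10.0% of all peaks of the list and 14.4% of peaks on the rest of the arms. Of the 7683 peaks of the list, 2625 lay on the chromosome arms, chromosome 4 included. The others lay on other sequences, among them heterochromatin scaffolds and unplaced sequence, so values of the whole list here and below are not values of the arms. The proximal share thus lay near that of the rest of the arms, with overlapping intervals. The median score was 29.98 on chromosome 4 (interval 23.19 to 46.59), 14.16 at the proximal ends (interval 13.50 to 15.69) and 14.30 on the rest of the arms (interval 13.83 to 14.60), beside 13.70 over the whole list.

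The middle range of scores was wider on chromosome 4 than at the proximal ends, although the extremes were close, with 6.10 to 306.92 on chromosome 4 and 7.18 to 275.70 at the proximal ends. On chromosome 4 the quartiles were 14.30 and 106.00, at the proximal ends 10.87 and 22.52, and on the rest of the arms 10.75 and 27.97. Scores of 100 or more belonged to 24 of 85 peaks on chromosome 4 (28.2%) and to 12 of 175 at the proximal ends (6.86%), against 8.03% on the rest of the arms and 4.43% of the whole list. At the other end of the range, scores under 20 belonged to 31 peaks of chromosome 4 (36.5%) and 122 of the proximal ends (69.7%), against 68.4% on the rest of the arms and 76.9% of the whole list.

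**Figure D1:**
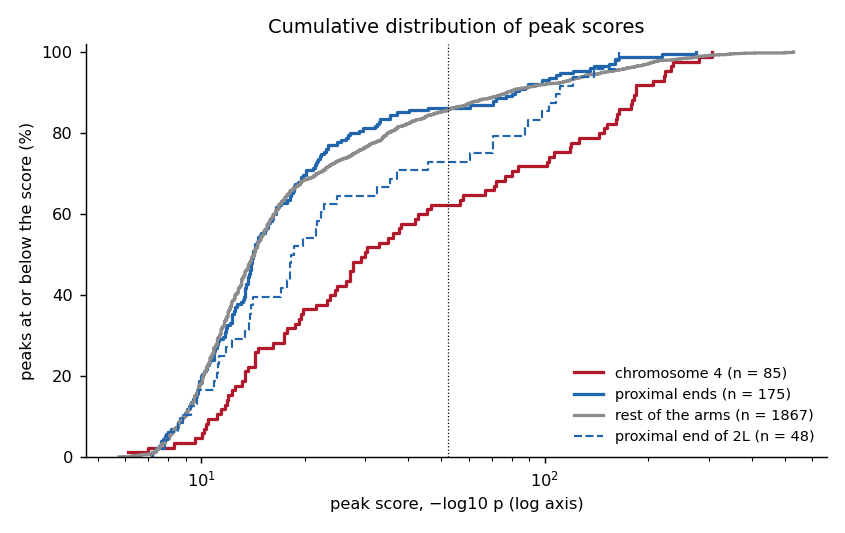
Cumulative share of peaks (%) by score (−log10 p, log axis) for chromosome 4 (n = 85), the 4 proximal ends together (n = 175), the rest of the same arms (n = 1867) and, dashed, the proximal end of 2L alone (n = 48); the dotted line marks a score of 52.26. The curve of the proximal ends runs along that of the rest of the arms, with medians of 14.16 and 14.30, while that of chromosome 4 lies to the right, with a median of 29.98, and that of 2L between them, at 18.43.

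Both territories were dense in peaks. Chromosome 4 had 67.4 peaks per Mb over the 1.26 Mb from its first to its last peak (interval 53.9 to 83.4), the proximal ends had 43.7 per Mb (interval 37.5 to 50.7) and the rest of the arms 19.9 per Mb (interval 19.0 to 20.8). The 2 territories were close in weaker peaks, with 42.0 per Mb on chromosome 4 (interval 31.5 to 55.0) and 37.8 per Mb at the proximal ends (interval 32.0 to 44.3), against 17.0 per Mb on the rest of the arms. They were far apart in strong peaks. Chromosome 4 had 25.4 strong peaks per Mb (interval 17.4 to 35.8) and the proximal ends 6.00 per Mb (interval 3.84 to 8.93), against 2.87 per Mb on the rest of the arms (interval 2.54 to 3.23). Chromosome 4 was thus 1.11 times as dense as the proximal ends in weaker peaks and 4.23 times as dense in strong ones.

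Peaks covered 4.04% of the bases of chromosome 4, 2.40% of the proximal ends and 1.14% of the rest of the arms. The covered lengths were 51.0 kb on chromosome 4, 96.1 kb at the proximal ends and 1069 kb on the rest of the arms.

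**Figure D2:**
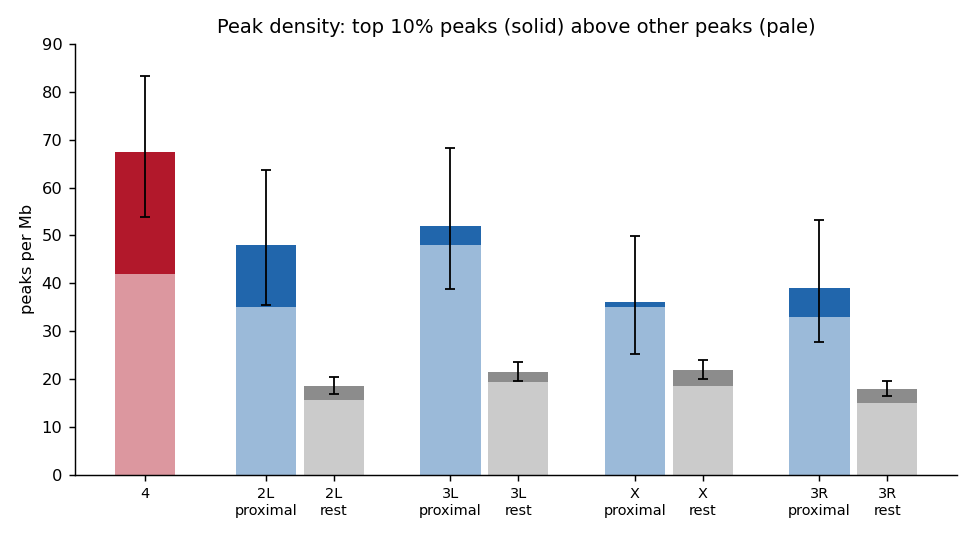
Peaks per Mb on chromosome 4 and, for each of the 4 arms, on the proximal 1 Mb and on the rest of the arm; solid segments are strong peaks (top 10% of the list), pale segments are the other peaks, and bars show the exact Poisson 95% interval of the total. All 4 proximal ends are denser than the rest of their arm, and the solid segment is tallest on chromosome 4, at 25.4 per Mb.

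The strongest peaks of chromosome 4 reached several times the background. The highest scored 306.92 over 1194 bp, at bases 1202160 to 1203353, with an inferred pileup of 606 fragments, 7.57-fold over the background rate. It ranked 22 in the whole list. The next, at bases 1047580 to 1048748, was 1169 bp wide and scored 281.69, which corresponds to 577 fragments and 7.21-fold. The third, at bases 591262 to 592434, scored 236.43 and did not match the shared rate, so it has no inferred fold. A 606-bp peak at bases 887532 to 888137 scored 233.18 (6.48-fold), and it had a weak companion of score 12.25 starting 268 bp beyond its end. A 1500-bp peak at bases 199832 to 201331 scored 224.28 (6.35-fold), and its neighbour, 64 bp further on, scored 13.11.

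The other 5 of the 10 highest peaks lay near both ends and in between. At bases 1081390 to 1082338 the score was 221.87 (6.31-fold), and at bases 335072 to 335691 it was 206.80 (6.07-fold). A pair of peaks near the proximal side, at bases 64255 to 65820 and 87727 to 88626, shared the score 184.43, which corresponds to 457 fragments and 5.71-fold. The tenth, at bases 808214 to 809682, scored 182.16 (5.67-fold). All 10 were 606 to 1566 bp wide. The widest peak of chromosome 4 was not among them: it spanned 1806 bp at bases 581699 to 583504 with a score of 36.07. No peak was assigned to a gene, because the gene table at hand is of release 6 and the peaks are on release 5, and for the same reason no sequence is shown.

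Strong peaks were present in every part of chromosome 4. Each of its 13 bins of 100 kb, counted from the first peak, held at least 1 strong peak (the last bin was shorter), and the bins held 2 to 14 peaks with a median of 6. At the proximal ends, 17 of 40 such bins held a strong peak (42.5%), and on the rest of the arms 199 of 936 did (21.3%). No bin of chromosome 4 was empty, against 1 of 40 at the proximal ends and 38.6% on the rest of the arms. Cut into 4 equal lengths of 315 kb, chromosome 4 held 29, 14, 16 and 26 peaks from the proximal side outwards, of which 11, 7, 3 and 11 were strong. Both ends of the chromosome were richer than its middle. The longest stretch with no peak ran for 90.5 kb, from base 717733 to base 808213.

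**Figure D3:**
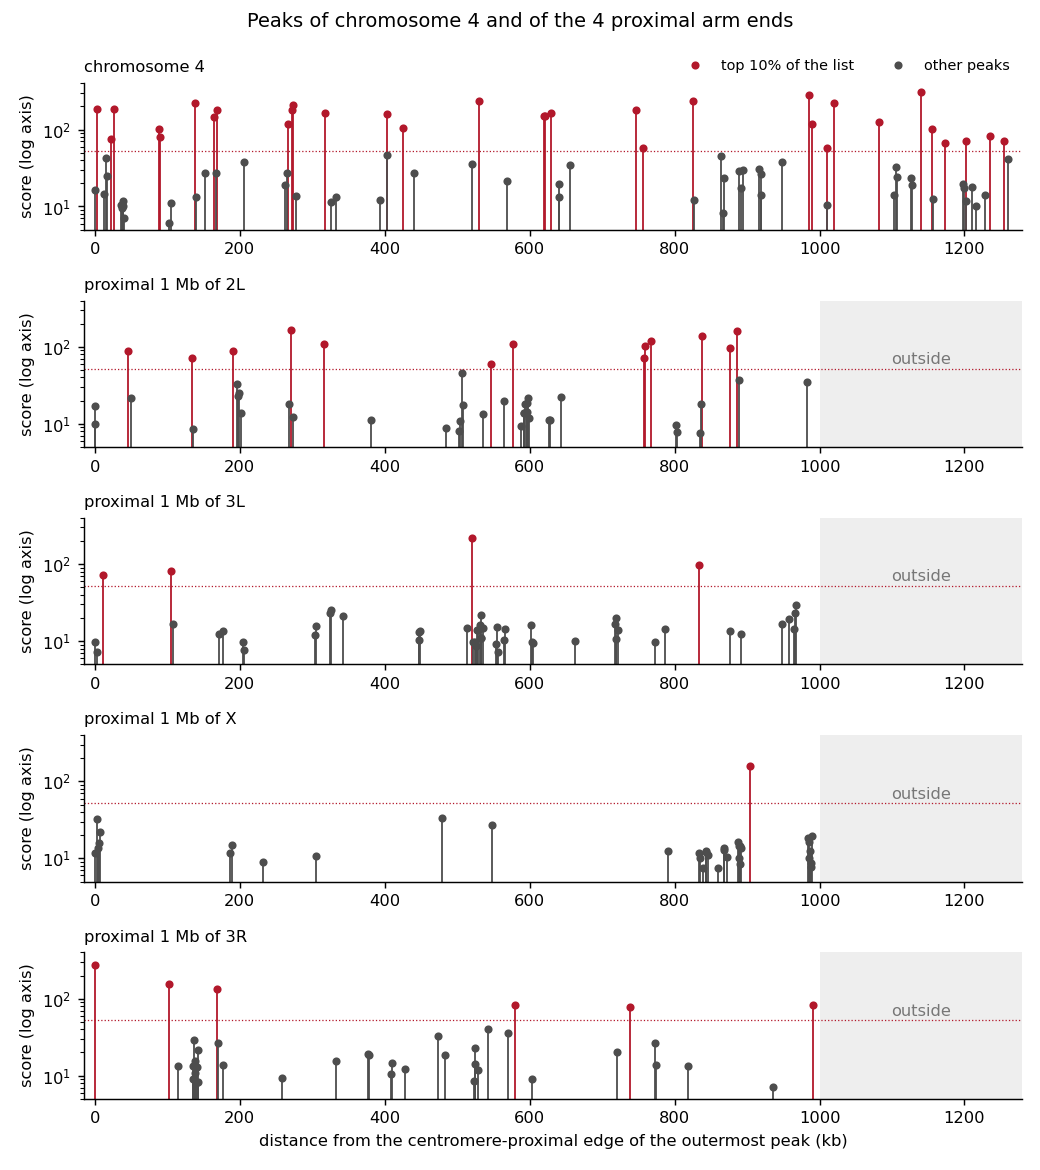
Score (−log10 p, log axis) of each peak against its distance (kb) from the proximal edge of the outermost peak, for chromosome 4 and the 4 proximal arm ends; red points are strong peaks, in the top 10% of the list, grey points the other peaks, and the dotted line marks a score of 52.26. Red points run along the whole of chromosome 4, where all 13 bins of 100 kb hold one, and are scarcer at the arm ends, with 13 on 2L, 4 on 3L, 1 on X and 6 on 3R.

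Strong peaks of chromosome 4 formed 6 groups of 3 or more linked across gaps of at most 30 kb. The shortest, at bases 328342 to 335691, held 3 strong peaks and no other in 7.35 kb, with scores of 118.98 to 206.80. The group at bases 681081 to 691913 held 3 strong peaks and no other in 10.8 kb, with scores of 149.16 to 162.12. In the group at bases 199832 to 231045, 3 of 6 peaks were strong, with a highest score of 224.28. Near the proximal side, at bases 64255 to 88626, 3 of 6 peaks were strong and reached 184.43. The other groups, at bases 1047580 to 1082338 and 1202160 to 1264655, held 4 strong peaks each among 5 and 8 peaks. Strong midpoints were a median of 21.8 kb apart on chromosome 4 (31 intervals), 84.0 kb at the proximal ends (20 intervals) and 209 kb on the rest of the arms (265 intervals). The proximal ends had 1 such group, on 2L at bases 22239071 to 22249925, where all 3 peaks were strong and scored 70.75 to 120.97. No count of such groups is given for the rest of the arms or the whole list. The median spacing of strong peaks on chromosome 4 was below the limit of 30 kb, and the part of density in these groups was not tested.

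Set against the arms in windows of 1 Mb tiled from the proximal edge, chromosome 4 lay beyond all of them. Its first and its last Mb, which overlap, each held 62 peaks, of which 23 and 24 were strong. Among the 96 windows of the 4 arms, the most peaks in a window was 59 and the most strong peaks was 18. Both maxima belonged to the window of 2L next to its proximal end, where 15 of the 18 strong peaks lay in a single block of linked strong peaks at bases 21416353 to 21573521, which is outside the proximal end.

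**Figure D4:**
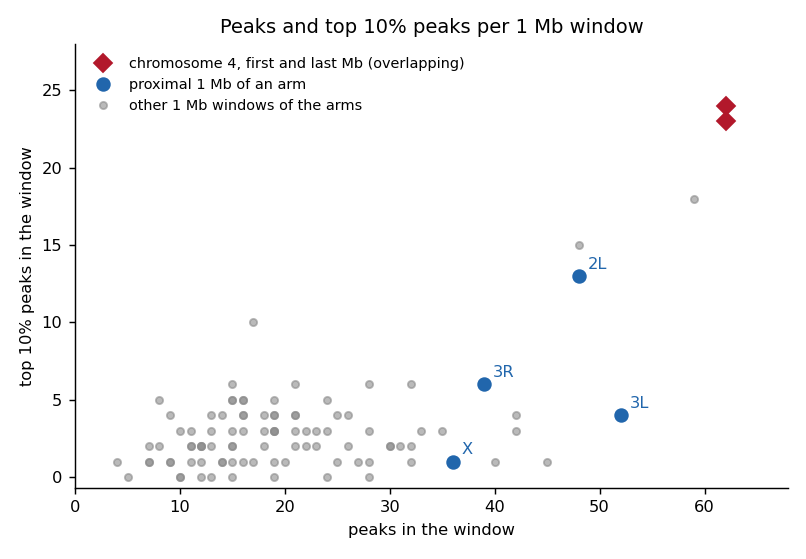
Strong peaks against all peaks per window of 1 Mb: diamonds are the first and last Mb of chromosome 4, which overlap, blue points the proximal 1 Mb of each arm and grey points the 92 other windows of the 4 arms. The diamonds, with 62 peaks each and 23 and 24 strong peaks, stand apart at the upper right, and the proximal ends lie at 48 peaks and 13 strong peaks on 2L, 52 and 4 on 3L, 36 and 1 on X, and 39 and 6 on 3R.

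The 4 proximal ends were alike in total density and differed in strong peaks. Peak density was 48.0 per Mb at the proximal end of 2L and 18.6 on the rest of 2L. It was 52.0 per Mb at the proximal end of 3L and 21.5 on the rest of 3L, 36.0 at the proximal end of X and 22.0 on the rest of X, and 39.0 at the proximal end of 3R and 18.0 on the rest of 3R, so that the proximal end was denser on 4 of 4 arms, by 1.64 to 2.58 times. Weaker peaks alone gave 1.90 to 2.47 times. The peaks of the X end lay mostly far from its edge: of 36, 16 lay 800 to 900 kb from it and 8 lay 900 to 1000 kb from it. The 500 kb nearest the X edge held 10 of them. Ranked among the windows of its own arm, the proximal end held the most peaks of 24 on 3L and of 27 on 3R, ranked 2 of 23 on 2L and 4 of 22 on X.

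In strong peaks, 2L was the highest of the 4 ends and X the lowest. The proximal end of 2L held 13 strong peaks among 48 (27.1%, interval 15.3 to 41.8%), against 15.6% of peaks on the rest of 2L. On 3R the count was 6 of 39 (15.4%, interval 5.9 to 30.5%), against 17.0% on the rest. On 3L it was 4 of 52 (7.69%, interval 2.14 to 18.5%), against 9.49% on the rest, and on X 1 of 36 (2.78%, interval 0.07 to 14.5%), against 16.0% on the rest. Per Mb, strong peaks were 4.47 times as dense at the proximal end as on the rest of 2L, 1.96 times on both 3L and 3R, and 0.285 times on X, where the 1 strong peak compares with 3.51 per Mb elsewhere. Without 2L, the other 3 ends had 11 strong peaks of 127 (8.66%, interval 4.40 to 15.0%), against 14.1% on the rest of those 3 arms.

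The proximal end of 2L came nearest to chromosome 4. Its highest peak, at bases 22736099 to 22737108, scored 164.31 (5.37-fold, 430 fragments), the same value as a peak of chromosome 4. Next came a 2114-bp peak at bases 22119866 to 22121979 with 159.94 (5.30-fold), which was also the widest of that end, and a peak at bases 22169052 to 22169872 with 139.33 (4.93-fold). All 13 strong peaks of this end matched the shared rate, at 3.34-fold to 5.37-fold. They were spread over 7 of its 10 bins of 100 kb.

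The proximal end of 3L held the most peaks of the 4 ends and few strong ones. One peak stood far above the others, at bases 24020521 to 24021768, with a score of 218.68 (6.26-fold). The next scored 97.83 (4.15-fold) at bases 23707708 to 23708263 and 80.41 (3.78-fold) at bases 24435758 to 24436493. The fourth and widest, 1495 bp at bases 24529107 to 24530601, lay 11.2 kb from the edge and scored 71.86. The remaining 48 peaks had a median score of 13.70.

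On 3R, the outermost peak of the arm was also the highest of all proximal ends. It scored 275.70 (7.12-fold, 570 fragments) over 989 bp at bases 57935 to 58923 and ranked 39 in the whole list. The next peak was 101 kb away. Others scored 153.44 at bases 159620 to 160318, with no match to the shared rate, and 135.18 at bases 225562 to 226329 (4.86-fold). The widest, 1422 bp at bases 637728 to 639149, scored 82.16.

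The proximal end of X was the sparsest of the 4 in strong peaks. Its only strong peak, at bases 21501146 to 21502262, scored 159.94 (5.30-fold). The next highest were the widest peak, 2671 bp at bases 21924565 to 21927235 with 33.11, and a peak at bases 22402184 to 22403335 with 32.03. A stretch of 242 kb from base 21615051 to base 21857329 had no peak, the longest gap in any of these territories. Of the 36 peaks, 31 scored under 20 (86.1%). The share was 62.9% on the rest of X, 68.4% on the rest of the arms and 76.9% of the whole list.

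With the 4 arms pooled, the excess of peaks did not end at 1 Mb and was not highest at the edge, but the arms differed. Over the 4 arms together, the 500 kb nearest the edge held 34.0 peaks per Mb, the next 500 kb held 53.5, the 500 kb from 1000 to 1500 kb held 44.0, and the 500 kb up to 2000 kb held 22.5, close to the 19.9 of the rest of the arms as defined here. The profile differed by arm. On 2L these intervals held 17, 31, 36 and 23 peaks, and on 3L 17, 35, 33 and 9, so that density was highest away from the edge. On X they held 10, 26, 9 and 11. On 3R they held 24, 15, 10 and 2, falling away from the edge. From 1000 to 1500 kb, density was 72.0 per Mb on 2L and 66.0 on 3L, but 18.0 on X and 20.0 on 3R. The rest of X and the rest of 3R had 22.0 and 18.0 per Mb, so the pooled excess past 1 Mb lay mainly on 2L and 3L. On 2L, the block of linked strong peaks lay 1434 to 1591 kb from the edge. The peaks nearest to the boundary were below the limit for strong peaks on both sides on 3 arms, with scores of 35.44 inside and 12.98 outside on 2L, 29.57 inside and 7.86 outside on 3L, and 19.46 inside and 36.57 outside on X. On 3R, a strong peak of 83.98 lay 8.74 kb inside the boundary and a peak of 11.14 lay 19.1 kb outside it.

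Within 5000 bp, close neighbours were about as frequent in each territory. Another midpoint lay within 5000 bp for 59 of 85 peaks of chromosome 4 (69.4%, interval 58.5 to 79.0%) and 125 of 175 at the proximal ends (71.4%, interval 64.1 to 78.0%), against 67.6% on the rest of the arms and 74.2% of the whole list. This depended on the distance. Within 2000 bp the share was 42.4% on chromosome 4 and 58.9% at the proximal ends, against 59.7% on the rest of the arms, and within 20000 bp it was 95.3% on chromosome 4 and 90.3% at the proximal ends, against 79.5% on the rest of the arms. Runs, defined as chains of at least 5 peaks with gaps of at most 2000 bp, took in 5 peaks of chromosome 4 (5.88%, interval 1.94 to 13.2%) and 43 of the proximal ends (24.6%, interval 18.4 to 31.6%), against 39.7% of peaks on the rest of the arms and 36.8% of the peaks of all chromosome arms. The share was lower at the proximal end than on the rest of 2L (14.6 against 37.7%), 3L (17.3 against 46.0%) and 3R (23.1 against 35.6%). On X it was higher, at 50.0 against 39.0%. Among the top 50% of the list, runs took in no peak of chromosome 4 and 11.0% at the proximal ends, against 10.1% on the rest of the arms, and with peaks within 1000 bp merged they took in none on chromosome 4 and 4.27% at the proximal ends, against none on the rest of the arms.

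The runs of these territories were few. The single run of chromosome 4 held 5 peaks in 3.84 kb, at bases 98522 to 102359, with scores of 7.02 to 11.90. X had 3 runs, at bases 21415476 to 21421255 with 7 peaks, 21513311 to 21517770 with 6, and 22398300 to 22405253, at the very edge, with 5, and their scores ran up to 32.03. The others held 7 peaks on 2L at bases 22408116 to 22415712, 9 on 3L at bases 24005679 to 24016745 and 9 on 3R at bases 193375 to 200752, with highest scores of 21.67, 21.80 and 28.82. None of these 7 runs contained a strong peak, and strong peaks were also rare in runs on the rest of the arms, at 18 of 742 (2.43%). The densest 100 kb of 2L, 3L, X and 3R, with 16, 17, 16 and 14 peaks, held 2, 1, 0 and 2 strong peaks, whereas the densest 100 kb of chromosome 4, its first, held 14 peaks of which 5 were strong. Strong peaks had another peak within 5000 bp in 20 of 32 cases on chromosome 4 (62.5%) and 10 of 24 at the proximal ends (41.7%), against 68 of 269 on the rest of the arms (25.3%). These shares follow the order of the peak densities, and the part of density in them was not tested.

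Strong peaks had a higher median width in both territories than on the rest of the arms. Within the range of scores that the members reach, 52.26 to 306.92, the median width was 879 bp on chromosome 4 (interval 621 to 1169 bp, n = 32), 996 bp at the proximal ends (interval 736 to 1248 bp, n = 24) and 640 bp on the rest of the arms (interval 612 to 701 bp, n = 255). Widths of 800 bp or more belonged to 19 of the 32 on chromosome 4 (59.4%) and 16 of the 24 at the proximal ends (66.7%), against 31.0% on the rest of the arms. The width interval of chromosome 4 overlapped that of the rest of the arms. The median score of these strong peaks was higher on chromosome 4, at 150.23, and lower at the proximal ends, at 100.33, than on the rest of the arms, at 111.1. The part of score in these widths was not tested. By arm, the medians were 1003 bp at the proximal end and 748 bp on the rest of 2L (13 strong proximal peaks), 992 bp at the proximal end and 557 bp on the rest of 3L (4 strong proximal peaks), and 878.5 bp at the proximal end and 613.5 bp on the rest of 3R (6 strong proximal peaks). The 1 strong peak of the proximal end of X was 1117 bp wide, against a median of 640 bp. Peaks that were not strong differed little in width, with medians of 335 bp on chromosome 4, 377 bp at the proximal ends and 355 bp on the rest of the arms.

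**Figure D5:**
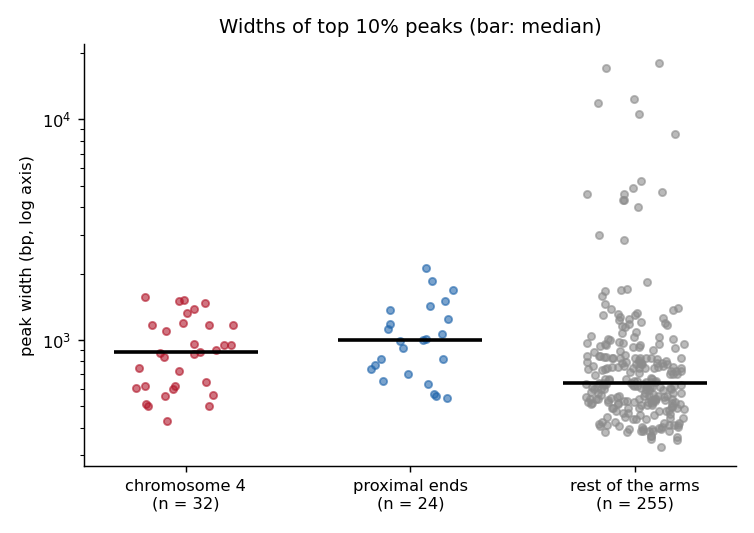
Width (bp, log axis) of each strong peak with a score of 52.26 to 306.92 on chromosome 4 (n = 32), at the proximal ends (n = 24) and on the rest of the arms (n = 255), with black bars for the medians. The medians are 879 bp on chromosome 4, 996 bp at the proximal ends and 640 bp on the rest; the peaks of the rest of the arms include some far wider than any of the other classes.

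The scores of chromosome 4 matched the shared background rate more often than those of the other territories. Matches were found for 67 of 85 peaks on chromosome 4 (78.8%, interval 68.6 to 86.9%) and 84 of 175 at the proximal ends (48.0%, interval 40.4 to 55.7%), against 53.2% on the rest of the arms and 59.7% of the whole list. Among strong peaks the shares were close, with 28 of 32 on chromosome 4 (87.5%), 22 of 24 at the proximal ends (91.7%) and 81.0% on the rest of the arms, beside 54.2% of all strong peaks of the list. Among weaker peaks they were 73.6% on chromosome 4, 41.1% at the proximal ends and 48.5% on the rest of the arms. By arm, the proximal share was 58.3% on 2L, 50.0% on 3L, 43.6% on 3R and 36.1% on X.

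For matched peaks, the inferred enrichment was a median of 2.52-fold on chromosome 4 (quartiles 1.98 and 4.55), 2.08-fold at the proximal ends (quartiles 1.90 and 3.39) and 2.05-fold on the rest of the arms (quartiles 1.85 and 2.87). Each fold was derived from the score of its peak at the shared rate, so the folds restate the scores of matched peaks and are not a separate measure. Matched strong peaks had a median of 5.08-fold on chromosome 4, 4.20-fold at the proximal ends and 4.46-fold on the rest of the arms. The highest matched peak was at 7.57-fold on chromosome 4, 7.12-fold at the proximal ends and 10.5-fold on the rest of the arms, so that the highest inferred enrichment was in neither territory. Matched weaker peaks had a median of 2.10-fold on chromosome 4, 1.97-fold at the proximal ends and 1.95-fold on the rest of the arms, and the lowest fold called was 1.57 on chromosome 4 and 1.64 at the proximal ends.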

How the data were processed

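The assay was ChIP-seq with 2 GFP ChIP and 2 input libraries. The authors deposited 1 list of 7683 peaks made with MACS on FlyBase release 5, per the file headers. The submitters' processing notes name CASAVA 1.7.0.2, CASAVA 1.7.0.3, BWA, MACS2 and the build BDGP5, with no roles or settings. Neither header nor labels state the pooling of replicates, the threshold, the read depth or the handling of multiply aligned reads. The deposited score names no unit and was read as unadjusted −log10 p from its values. Poisson rates from 20 to 400 were tried in steps of 0.01 and then 0.0001, and a score matched when it equalled −log10 of P(X > k) to 2 decimals for a whole pileup k.

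Classes, densities over spans from first to last peak, medians, shares and intervals were computed with Python 3.11.15, NumPy 2.4.6, pandas 2.3.3 and SciPy 1.17.1, and the code was tested on simulated data. Named regions were the 10 highest peaks of chromosome 4, the 3 highest and the widest of each proximal end, peaks at the boundaries, groups of strong peaks, runs and the densest bins. The members and lists were chosen with earlier results of these data known. The arm 2R is not reported here.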

Additional observations from a re-analysis of the deposited data

How the results depend on the processing

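Of 166 values under 15 alternative settings, 95 stayed within the 95% interval of the main value and 71 moved outside it. Values are given for chromosome 4, the proximal ends and the rest of the arms in that order where all 3 moved.

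Ends of 0.5 Mb had 34.0 peaks per Mb and 1.96% of bases covered. Ends of 2 Mb had 3.34% covered and left 1.00% on the rest. These longer ends took in the block of linked strong peaks on 2L. Peaks there covered 45500 bp from 1400 to 1500 kb and 76672 bp from 1500 to 1600 kb. Merging peaks within 1000 bp gave 53.1, 29.2 and 11.9 peaks per Mb, median widths of 823, 581 and 526 bp, 49.3, 44.4 and 34.3% with a close neighbour, 0, 4.27 and 0% in runs, median scores of 16.48 and 19.17 at the ends and on the rest, 2.99 and 1.45% of bases covered there, and 22.6% strong peaks on the rest. The top 50% of the list gave 53.1, 25.0 and 10.6 peaks per Mb, 56.7, 57.0 and 46.1% with a close neighbour, 0, 11.0 and 10.1% in runs, and, at the ends and on the rest, median scores of 21.33 and 25.25, 24.0 and 27.0% strong peaks, median widths of 548 and 522 bp and 1.72 and 0.806% covered. Both settings change the number of peaks by construction.

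Without peaks in runs, the ends and the rest had 33.0 and 12.0 peaks per Mb, 1.83 and 0.617% of bases covered and 61.4 and 46.9% of peaks with a close neighbour, and the rest had a median score of 16.16, 22.3% strong peaks and a median width of 381 bp. The top 5% held 8.00% of peaks at the ends and 8.62% on the rest, and the top 20% held 62.4, 25.1 and 29.5%. A neighbour within 2000 bp was found for 42.4, 58.9 and 59.7% and within 20000 bp for 95.3, 90.3 and 79.5%. Without 2L, 8.66% of proximal peaks were strong and 1.05% of the rest was covered. Without X, 18.0% of proximal peaks were in runs and the median score of the rest was 13.73. Without 3L, the rest had 16.2% strong peaks, 65.3% with a close neighbour and 37.4% in runs, and without 3R it had 1.25% of bases covered and 70.0% with a close neighbour. Without the block on 2L, 1.01% of the rest was covered. With the rate to 2 decimals, 54.1, 38.3 and 42.1% of scores matched. The last 2 settings were chosen after seeing the data. The cause of these changes was not tested.

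Chromosome 4 had the most peaks per Mb, the highest median score and the highest share of strong peaks under each of these settings, whereas other orders turned. The proximal ends passed the rest in share of strong peaks with ends of 0.5 or 2 Mb and without 3L or X, in median score with ends of 0.5 Mb and without X, and in share in runs for the top 50% and for merged peaks. They fell below the rest in median width without 3R, and in close neighbours with ends of 2 Mb and within 2000 bp. Chromosome 4 passed the proximal ends in close neighbours with ends of 2 Mb, with merged peaks, without runs, within 20000 bp and without X. No paired analysis was possible because single libraries have no values in the deposited file, and leaving out each replicate was not run for the same reason. Assembly lengths as denominators were not run. Read depth is unknown.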

Other observations

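Scores recurred among the members. The 260 peaks had 208 distinct scores, and the 56 strong ones had 49. The score 164.31 belonged to a peak of chromosome 4 and to the highest proximal peak of 2L, 159.94 to a proximal peak of 2L and the strong peak of X, and 102.83 to a peak of chromosome 4 and one of 2L. Each of these corresponds to a whole number of fragments at the shared rate, 430, 424 and 340, so peaks with equal scores have equal inferred summit pileups. Across the peaks of each territory, score and width rose together, with Spearman's rho of 0.80 on chromosome 4 (n = 85), 0.68 at the proximal ends (n = 175) and 0.59 on the rest of the arms (n = 1867). Both values of a peak come from the same caller and the same libraries. The cause of the relation was not tested.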
